A study of Mus musculus with 5 samples.

Results

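T-cell activation and checkpoint genes, 10 in all, were followed through mouse blood: the receptors Icos, Ctla4, Pdcd1, Lag3 and Tigit, the surface activation markers Cd69 and Cd44, and the transcription factors Tox, Batf and Runx2. They were chosen by gene symbol, and all 10 were found among the 33696 genes of every count matrix. Peripheral blood mononuclear cells of C57BL/6N mice were profiled by droplet single-cell RNA sequencing (10x Genomics 3' chemistry) in a mouse model of HFpEF, heart failure at preserved ejection fraction, in which the heart is stiff but still ejects a normal share of its blood. There was 1 library from mice given a high-fat diet (HFD), the nitric oxide synthase inhibitor L-NAME and, in the last 4 of 15 weeks, nitro-oleic acid (NO2-OA), an electrophilic fatty acid. HFD and L-NAME alone for 15 weeks gave 2 libraries, and chow, with neither agent, gave another 2. The labels do not say whether each library came from a separate animal, so p-values measure only the spread between these libraries, which may in part be technical. The questions addressed were what the regimen does to circulating cells and what NO2-OA, given late in the regimen, changes.

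A T cell is activated when its antigen receptor and a costimulatory receptor such as CD28 or ICOS are engaged together. Activation brings CD69 and then CD44 to the surface, and it also brings inhibitory receptors, the checkpoints CTLA-4, PD-1, LAG-3 and TIGIT, that limit the response. BATF, RUNX2 and TOX are DNA-binding proteins: BATF pairs with JUN proteins and works with IRF4 in effector T cells, RUNX2 is best known from bone and also acts in memory T cells and plasmacytoid dendritic cells, and TOX is needed for T-cell development in the thymus and for exhausted T cells.

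The libraries held 8488 to 17997 barcodes and 71216133 to 122022000 unique molecular identifiers (UMIs, each 1 counted molecule), and 54971 cells were kept. Median UMIs per kept cell ran from 5641 to 7155, and 1.23% to 1.65% of a library's barcodes also occurred in another library. The file names place the NO2-OA library and both libraries numbered 1 in one set and both libraries numbered 2 in another, so ratios within a replicate number are given beside pooled values. The second HFD + L-NAME library stood apart: it held 7165 kept cells, 23.1% of them platelet-like, against 0.792% platelet-like in the NO2-OA library. It also gave the fewest CD4 T-like cells, with 343 against 1236 to 2529 in the other libraries. Cell classes are called "-like" because they rest on marker genes, with the 10 genes left out both of the markers and of the clustering. All 7 shared T-cell markers, among them Cd3e, Cd3d and Trac, were detected in CD4 T-like cells, where they summed to 1817 CPM (UMIs of a gene per 1000000 UMIs summed over the class in that library) in the NO2-OA library, 2129 and 2433 CPM in the HFD + L-NAME libraries and 1585.5 and 2844 CPM in the chow libraries.

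**Figure D1:**
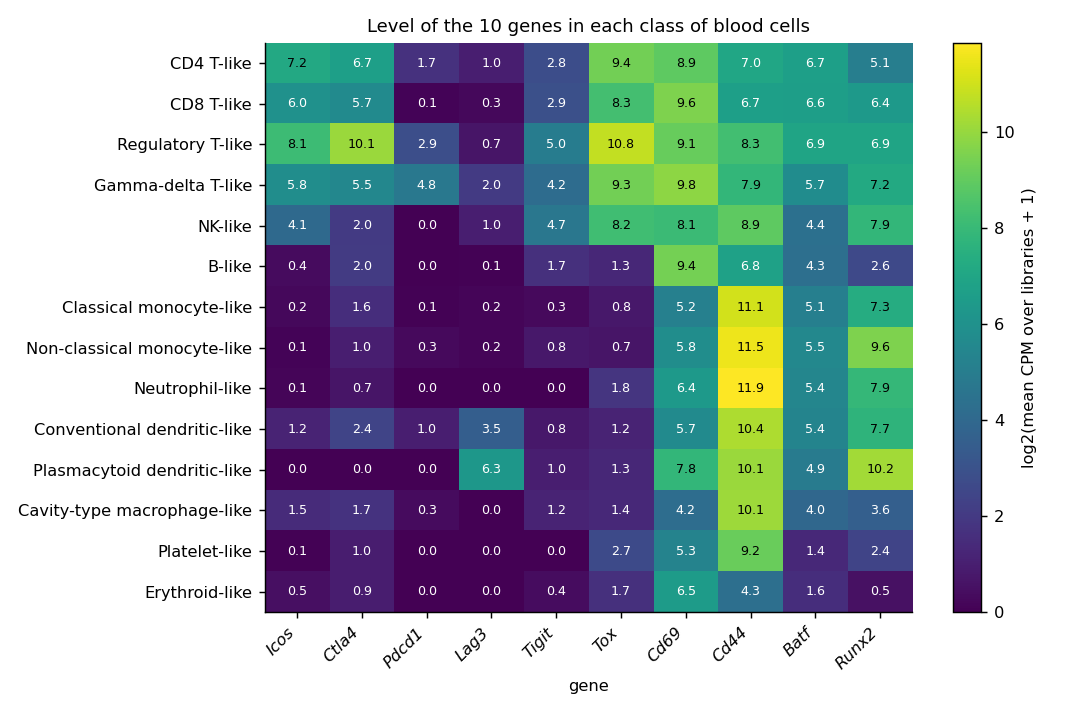
Level of the 10 genes (columns) in 14 classes of blood cells (rows), as log2(mean CPM over libraries + 1) in color and digits. Colors are to be read within a column: Icos, Ctla4, Tox and Batf were highest in T-like classes, Cd44 in monocyte-like and neutrophil-like cells, and Runx2 in plasmacytoid dendritic-like and non-classical monocyte-like cells.

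Only some of the 10 genes were T-cell transcripts by where their UMIs lay. CD4 T-like cells held 49.5% of the 13441 Icos UMIs and 46.1% of the 67570 Tox UMIs, and CD8 T-like cells held a further 27.9% of each. Of 16371 Ctla4 UMIs, regulatory T-like cells held 33.6% (26.3% to 39.8% over libraries) and CD4 T-like cells 29.0% (15.4% to 37.3%). Cells that no class claimed held a further 17.4% (8.31% to 44.0%). Of the 18253 Batf UMIs pooled over libraries, CD8 T-like cells held 30.8% and CD4 T-like cells 27.7%, but the shares differed widely between libraries, from 9.30% to 38.2% in CD8, 12.7% to 36.7% in CD4 and 7.20% to 29.2% in B-like cells. In both libraries numbered 2, B-like cells held more Batf UMIs than either T-like class, with 411 in HFD + L-NAME 2 and 466 in chow 2. By contrast, 48.0% of the 194245 Cd69 UMIs came from B-like cells. Cells like non-classical monocytes, which patrol the vessel wall, held 40.3% of the 36842 Runx2 UMIs and 26.0% of the 223398 Cd44 UMIs, with 14.3% to 38.5% of the Cd44 UMIs of a library. Pdcd1 and Lag3 were rare, with 273 and 235 UMIs in all kept cells, and Tigit had 1629. A share follows the number of cells of a class and their RNA content as well as the level, so levels per class are given next. Because classes were built from the same cells, levels between classes are a description with no test.

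Icos encodes the inducible costimulator, which binds ICOS ligand on antigen-presenting cells. Regulatory T-like cells had the highest levels, with 341 CPM in the NO2-OA library, 275 and 371 CPM in the HFD + L-NAME libraries and 260.3 and 143 CPM in the chow libraries. CD4 T-like cells followed with 201 CPM in the NO2-OA library, 161 and 148 CPM in the HFD + L-NAME libraries and 103 and 95.1 CPM in the chow libraries. The ranges of these 2 classes overlapped. CD8 T-like cells had 53.5 to 71.5 CPM and gamma-delta T-like cells 23.4 to 73.6 CPM, so those neighbours did not differ beyond their spread, and B-like cells had at most 0.543 CPM.

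Ctla4 encodes the inhibitory receptor that competes with CD28 for its ligands CD80 and CD86 and that regulatory T cells carry at rest. Regulatory T-like cells had 1114 CPM in the NO2-OA library, 1157 and 1156 CPM in the HFD + L-NAME libraries and 754 and 1202 CPM in the chow libraries. CD4 T-like cells had 132 CPM in the NO2-OA library, 99.3 and 105 CPM in the HFD + L-NAME libraries and 61.4 and 119 CPM in the chow libraries. CD8 T-like cells had 31.6 to 60.9 CPM and B-like cells 2.70 to 4.27 CPM. Not all cells of the B lineage were that low. A B-lineage cluster that stayed unnamed, led by Sox5, Lmo7 and Zbtb32, had 66.6 CPM over its 1636 cells, pooled over libraries. The regulatory class was thus above every other class in every library, while the CD4 and CD8 T-like classes did not overlap at their closest values of 61.4 and 60.9 CPM.

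Pdcd1 encodes PD-1, which binds PD-L1 and PD-L2. It was highest in gamma-delta T-like cells, with 29.3 CPM in the NO2-OA library, 56.2 and 14.1 CPM in the HFD + L-NAME libraries and 15.6 and 16.3 CPM in the chow libraries, from only 31 to 64 cells per library. Regulatory T-like cells had 2.53 to 12.6 CPM and CD4 T-like cells 0.927 to 3.46 CPM, and the CD4 values rest on 8 to 46 UMIs per library. No Pdcd1 UMI was found in B-like cells of any library.

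Lag3 encodes a receptor for MHC class II molecules. Plasmacytoid dendritic-like cells, which make type I interferon, held 27.7% of its UMIs pooled over libraries and conventional dendritic-like cells 21.7%. The plasmacytoid share ran from 0.0% to 58.2% of a library's Lag3 UMIs, and 21 of the 65 UMIs came from HFD + L-NAME 2 and 39 from chow 2. Of the libraries with enough plasmacytoid cells for a level, HFD + L-NAME 2 had 41.8 CPM and chow 2 had 114 CPM. CD4 T-like cells stayed between 0.320 and 1.39 CPM.

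Tigit encodes a receptor for the poliovirus receptor PVR (CD155) and is known from regulatory T and natural killer (NK) cells. Regulatory T-like cells had 37.0 CPM in the NO2-OA library, 36.5 and 53.4 CPM in the HFD + L-NAME libraries and 17.6 and 10.9 CPM in the chow libraries. NK-like cells had 19.8 to 30.7 CPM, inside that range. The CD4 T-like range of 2.84 to 10.7 CPM held the whole CD8 T-like range of 5.60 to 8.23 CPM.

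Tox was highest in regulatory T-like cells, with 1932 CPM in the NO2-OA library, 1814 and 2519 CPM in the HFD + L-NAME libraries and 1497 and 1009.6 CPM in the chow libraries. CD4 T-like cells had 536 to 822 CPM and gamma-delta T-like cells 363 to 759.6 CPM, overlapping ranges, then CD8 T-like cells 296 to 382 CPM and NK-like cells 236 to 397 CPM. Cd69, whose product keeps lymphocytes in tissue by removing the exit receptor S1PR1 from the surface, was not highest in regulatory T-like cells. It had 715 to 1242 CPM in gamma-delta T-like, 694 to 825 CPM in CD8 T-like, 537 to 814 CPM in B-like and 458 to 767 CPM in regulatory T-like cells, and these ranges overlapped. CD4 T-like cells, at 356 to 566 CPM, lay below every gamma-delta and CD8 T-like value. NK-like cells, at 235 to 350 CPM, lay below all of these classes. Monocyte-like classes lay well below, at 31.0 to 74.2 CPM.

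Cd44, the hyaluronan receptor that separates memory from naive T cells by its surface level, was mainly a myeloid transcript. Neutrophil-like cells had 3017 to 4720.3 CPM, non-classical monocyte-like cells 2274 to 3596 CPM and classical monocyte-like cells 1631 to 2478 CPM, against 101 to 167 CPM in CD4 T-like cells. Runx2 was highest in plasmacytoid dendritic-like cells, with 1212 CPM in HFD + L-NAME 2 and 1152 CPM in chow 2, and stood at 636 to 882 CPM in non-classical monocyte-like cells. Among T-like and NK-like classes its mean was highest in NK-like cells, at 181 to 319 CPM, a range that overlapped those of gamma-delta and regulatory T-like cells and lay above the 19.0 to 52.3 CPM of CD4 T-like cells. B-like cells had 3.90 to 7.41 CPM.

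Batf levels were spread widely between libraries. CD4 T-like cells had 184 CPM in the NO2-OA library, 152 and 82.1 CPM in the HFD + L-NAME libraries and 55.2 and 35.9 CPM in the chow libraries. In B-like cells the same gene stayed between 16.2 and 22.3 CPM in all 5 libraries, and in NK-like cells between 12.8 and 26.7 CPM.

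**Figure D2:**
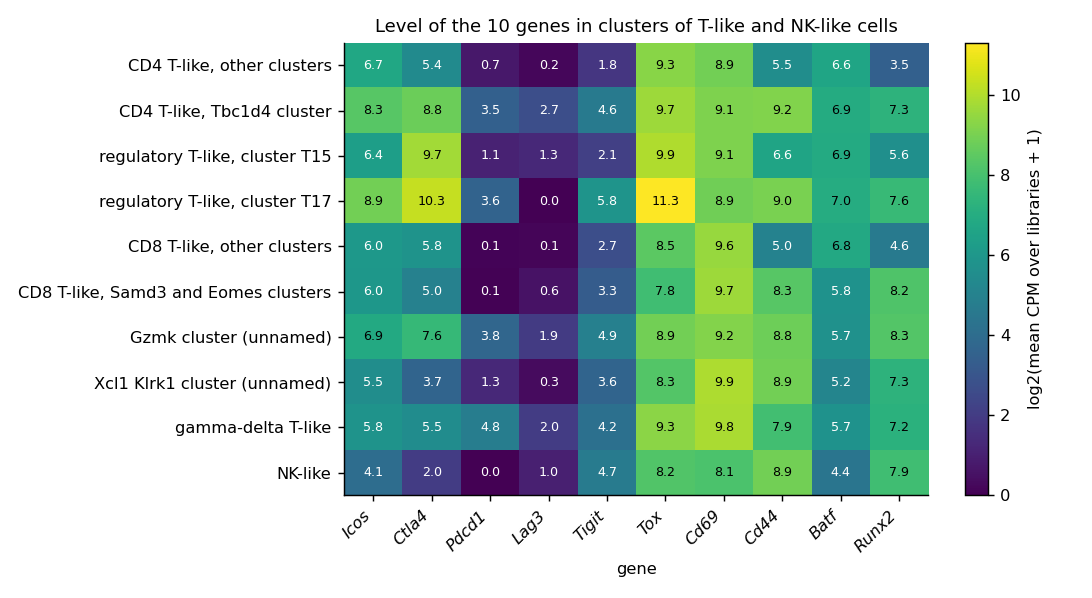
Level of the 10 genes (columns) in 10 clusters of T-like and NK-like cells (rows), as log2(mean CPM over libraries + 1). Read within a column, Ctla4, Cd44 and Runx2 were higher in the Tbc1d4 cluster than in the other CD4 T-like clusters, while for Batf the mean was 122 CPM in the Tbc1d4 cluster and 98.4 CPM in the others.

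Clusters within the T-like cells showed which T cells carried each gene. One CD4 T-like cluster was led by Tbc1d4, Nebl, Ctla4, Farp1 and Tnfsf8, and made up 13.4% of CD4 T-like cells in the NO2-OA library, 10.6% and 16.6% in HFD + L-NAME libraries and 9.26% and 17.3% in the chow libraries. Its Ctla4 level was 610.0 CPM in the NO2-OA library, 540.3 and 325 CPM in the HFD + L-NAME libraries and 301 and 409 CPM in the chow libraries, against 29.5 to 50.6 CPM in the other CD4 T-like clusters. Cd44 stood at 391 to 656 CPM there, against 31.7 to 79.2 CPM in the others. Runx2 stood at 95.8 to 266 CPM, against 6.80 to 15.6 CPM, Pdcd1 at 4.25 to 15.6 CPM, against 0.143 to 1.00 CPM, and Tigit at 13.5 to 41.7 CPM, against 1.33 to 3.03 CPM. Icos stood at 251 to 438 CPM, against 57.0 to 156 CPM. The levels of these 6 genes did not overlap between the cluster and the rest of its class across the 5 libraries. Those of Lag3 did not either, at 2.05 to 7.77 CPM against 0.0 to 0.433 CPM, from 3 to 18 UMIs per library in the cluster. Ctla4 and Icos were both among the leading genes of the cluster, which was set apart after the data were seen. The share of all genes that separate in this way was not counted.

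Batf was also higher in the Tbc1d4 cluster than in the rest of the class in each of the 5 libraries, but its levels overlapped across libraries. The Tbc1d4 cluster had 197 CPM of Batf in the NO2-OA library, 202 and 95.6 CPM in the HFD + L-NAME libraries and 63.6 and 53.4 CPM in the chow libraries. The other CD4 T-like clusters had 182 CPM in the NO2-OA library, 145 and 78.7 CPM in the HFD + L-NAME libraries and 54.1 and 31.8 CPM in the chow libraries. Both parts of the class thus had the same order of libraries but for the first 2 places.

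Among CD8 T-like cells, the clusters led by Samd3 and by Eomes, a transcription factor of memory and cytotoxic T cells, had 498 CPM of Runx2 in the NO2-OA library, 459 and 114 CPM in the HFD + L-NAME libraries and 237 and 126 CPM in the chow libraries. The other CD8 T-like clusters had 15.8 to 35.5 CPM. Cd44 was divided likewise, at 273 to 422 CPM against 20.2 to 59.2 CPM. Batf ran the other way in every library: the Samd3 and Eomes clusters had 102 CPM in the NO2-OA library, 99.9 and 24.0 CPM in the HFD + L-NAME libraries and 27.0 and 14.3 CPM in the chow libraries, below the other CD8 T-like clusters with 203 CPM, 203 and 64.1 CPM, and 61.1 and 24.97 CPM in the same order.

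A cluster with leading gene Gzmk, which encodes a granzyme of memory T cells, stayed unnamed and held 332 cells in the NO2-OA library, 120 and 34 in HFD + L-NAME libraries and 73 and 86 in the chow libraries. It had 211 to 243 CPM of Ctla4 in the 3 libraries on the regimen, against 102 and 189 CPM in the chow libraries, and 130 to 152 CPM of Icos, against 80.5 and 73.5 CPM. Pdcd1 there was 17.9 CPM in the NO2-OA library, 11.6 and 19.1 CPM in the HFD + L-NAME libraries and 12.3 and 1.36 CPM in the chow libraries. These values rest on few molecules, with 42 UMIs, 10 and 6 UMIs, and 7 and 1 UMIs in the same order, and HFD + L-NAME and chow overlapped. Regulatory T-like cells formed 2 clusters, of which one led by Ikzf2, Ctla4 and Il1rl1 had 301 to 544 CPM of Icos and 22.5 to 81.2 CPM of Tigit. The other, led by Il2ra, Ctla4 and Foxp3, had 48.5 to 117 CPM of Icos in the 4 libraries with enough cells.

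Joint detection was counted in single cells. With each of 7082 CD4 T-like cells thinned to 3000 UMIs, cells with a Ctla4 UMI had a Runx2 UMI in 14.1% of cases, against 3.67% of cells without. Cells with a Runx2 UMI, 363 in all, had Cd44 in 47.7% and Icos in 48.2%, against 16.4% and 26.0% of cells without. Cells with a Batf UMI had Cd44 in 18.2%, against 18.0% of cells without, and Icos in 33.7%, against 25.1%. Cells of all libraries are pooled in these shares, so a gene that differs between libraries carries that difference into them.

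**Figure D3:**
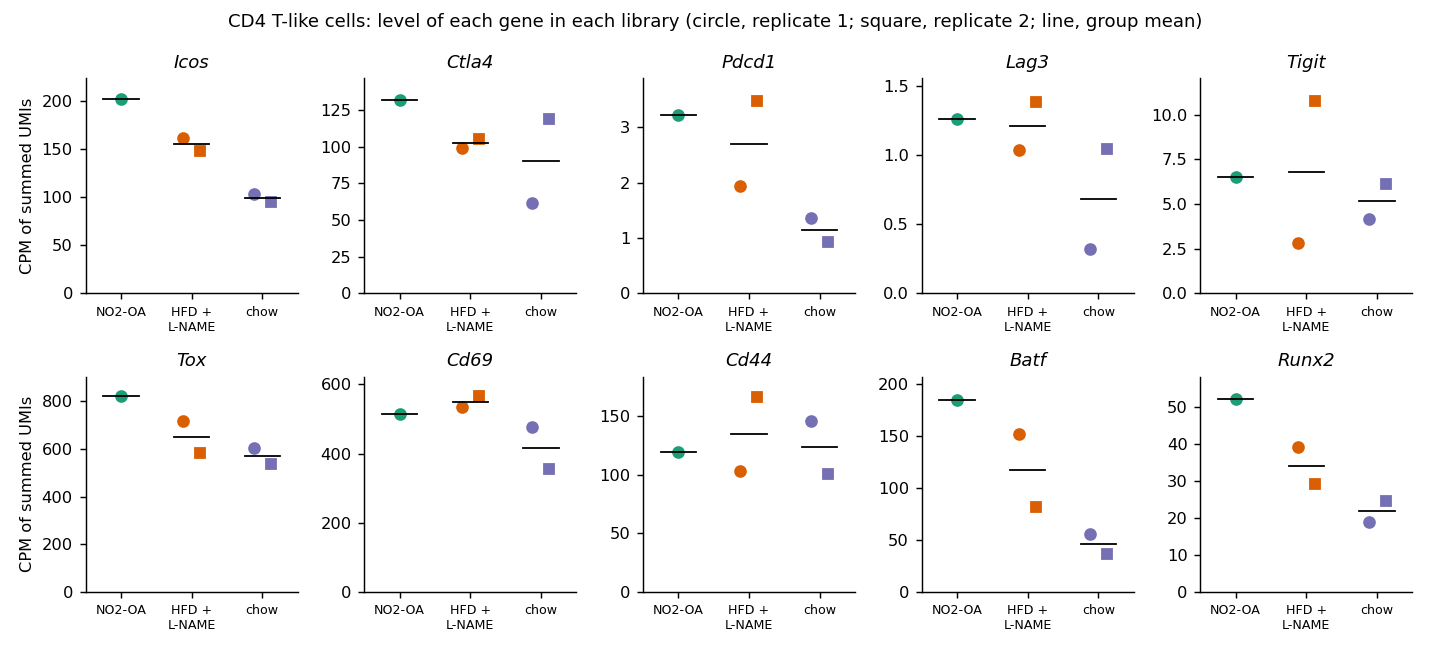
CD4 T-like cells: level of each of the 10 genes in CPM of summed UMIs (vertical axis from 0) in the NO2-OA, HFD + L-NAME and chow libraries, with circles for replicate 1, squares for replicate 2 and a line for the group mean. Icos, Pdcd1, Cd69, Batf and Runx2 had both HFD + L-NAME libraries above both chow libraries.

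The regimen itself was read from the HFD + L-NAME and chow libraries. In CD4 T-like cells 5 of the 10 genes, Icos, Pdcd1, Cd69, Batf and Runx2, were higher in both HFD + L-NAME libraries than in both chow libraries, and none was lower in both. Among all 14331 genes tested in the class, 9.15% were higher in this way and 17.2% lower. The median log2 fold change was 0.60 over the 10 genes and 0.01 over all genes. No gene of the class passed edgeR's quasi-likelihood test at an adjusted p under 0.05 (0.0% of genes), and the smallest adjusted p of any gene was 0.977. At an unadjusted p under 0.05 stood 3 of the 10 genes, Icos, Batf and Runx2, and 1.88% of all genes, and DESeq2 called 4 genes of the class.

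Batf had the largest of these differences. HFD + L-NAME libraries averaged 117 ± 49.7 CPM and chow libraries 45.6 ± 13.6 CPM (SD, n = 2 each), a fitted log2 fold change of 1.46 ± 0.33 (SE), or 2.76-fold. By edgeR's quasi-likelihood test its unadjusted p was 0.0014. With the replicate number, which follows the sets of file names, as a block, the fold change was 1.41 and passed. Its adjusted p was 0.000467 in edgeR, with 38 genes of the class called. The block leaves 1 residual degree of freedom, against 2 without it, so its variance estimate is weak. The log2 ratio of the libraries numbered 1 was 1.46 and of those numbered 2 was 1.19, so both sets showed it. With HFD + L-NAME 1 left out the log2 fold change was 0.86, and with HFD + L-NAME 2 left out it was 1.86. Outside the Tbc1d4 cluster it was 1.48.

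Icos averaged 155 ± 9.27 CPM in HFD + L-NAME and 98.9 ± 5.48 CPM in chow CD4 T-like cells (SD, n = 2 each). Its fitted log2 fold change was 0.72 ± 0.23 (SE), with log2 ratios of 0.65 and 0.64 within replicate numbers 1 and 2 and an unadjusted p of 0.0095 in edgeR. With 1 library left out it stayed between 0.59 and 0.82. Runx2 stood at 39.1 and 29.1 CPM in the HFD + L-NAME libraries and 19.0 and 24.7 CPM in the chow libraries, a log2 fold change of 0.73 ± 0.29 (SE). The ratios within replicate numbers were unequal, at 1.04 and 0.24, and the fold change was 0.42 with HFD + L-NAME 1 left out. Pdcd1 had 1.94 and 3.46 CPM in HFD + L-NAME, from 15 and 10 UMIs, against 1.36 and 0.927 CPM in chow, from 17 and 8 UMIs, and its log2 fold change of 1.22 ± 0.60 (SE) rests on those few molecules. Cd69 differed by 0.48 ± 0.26 (SE) on the log2 scale, and by 0.31 with chow 2 left out. For Ctla4, Lag3, Tigit, Tox and Cd44 the libraries of the 2 groups overlapped.

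**Figure D4:**
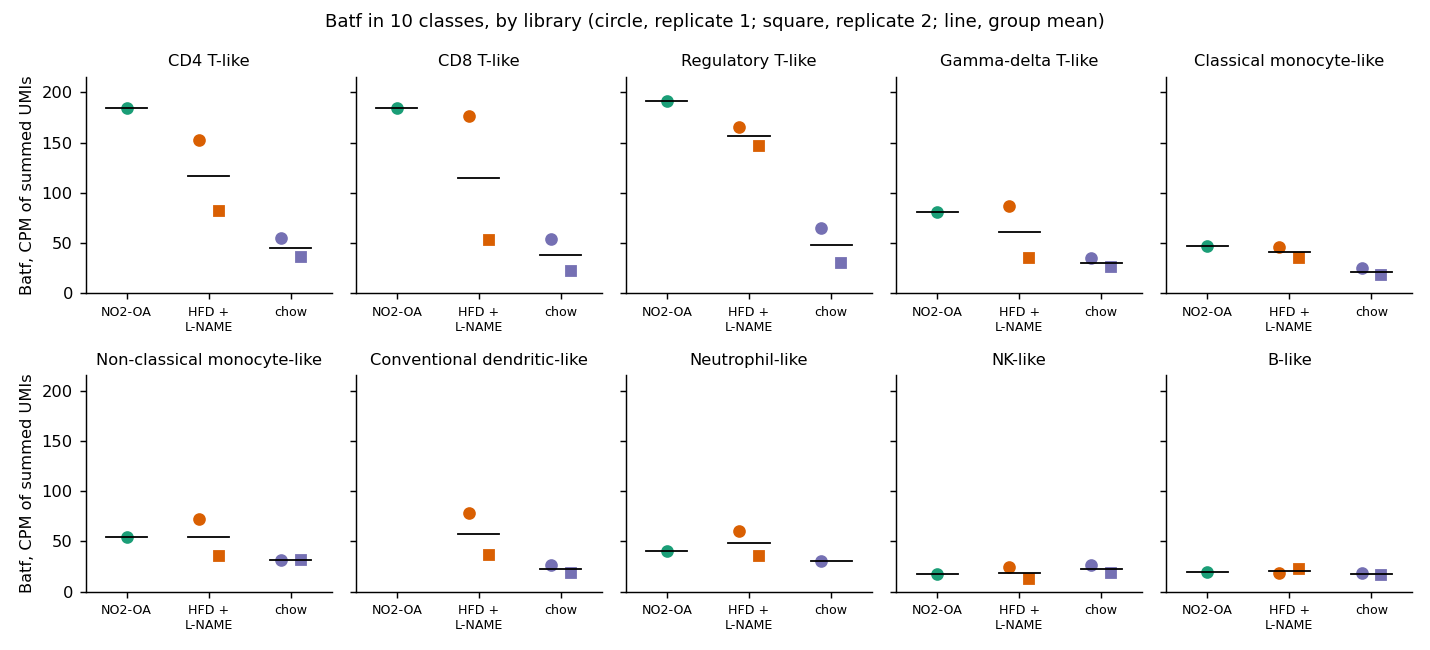
Batf in 10 classes of blood cells, in CPM of summed UMIs (vertical axis from 0, shared by all panels), in the NO2-OA, HFD + L-NAME and chow libraries, with circles for replicate 1, squares for replicate 2 and a line for the mean. Libraries with too few cells of a class are not drawn. Batf lay above both chow libraries in both HFD + L-NAME libraries of the CD4 T-like, regulatory T-like, both monocyte-like and conventional dendritic-like panels. The gamma-delta T-like panel had the same order, but HFD + L-NAME 2 and chow 1 nearly met there, at 35.2 and 35.1 CPM. Batf stayed flat in the B-like panel.

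Mean Batf levels were also higher in HFD + L-NAME than in chow in other classes. CD8 T-like cells had 185 CPM in the NO2-OA library, 176 and 53.0 CPM in the HFD + L-NAME libraries and 54.2 and 21.8 CPM in the chow libraries. Here the groups overlapped, since HFD + L-NAME 2 lay just under chow 1, while the log2 ratios within replicate numbers were 1.70 and 1.28. The fitted log2 fold change was 1.68 ± 0.66 (SE) with an unadjusted p of 0.0454 in edgeR. With the replicate number as a block it was 1.55 and passed, with an adjusted p of 0.00957 in edgeR and 2 genes of the class called. With HFD + L-NAME 1 left out it was 0.49, and with HFD + L-NAME 2 left out 2.43. No gene of the class passed at an adjusted p under 0.05 (0.0% of 14738), with 1.48% at an unadjusted p under 0.05 and 2 genes called by DESeq2. Of the 8 genes that passed the filter on low counts, 1 was higher and 1 lower in both HFD + L-NAME libraries, Ctla4 and Tigit, against 10.0% and 15.3% of all genes. Ctla4 had 60.9 and 55.4 CPM in HFD + L-NAME, against 31.6 and 49.6 CPM in chow.

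Classical monocyte-like cells had 47.1 CPM of Batf in the NO2-OA library, 46.2 and 35.2 CPM in the HFD + L-NAME libraries and 24.8 and 18.6 CPM in the chow libraries. The log2 fold change against chow was 0.97 ± 0.30 (SE), with ratios of 0.90 and 0.92 within replicate numbers, an unadjusted p of 0.00758 and an adjusted p of 0.946 in edgeR. Without the first chow library it was 1.19. In each library but HFD + L-NAME 2 most of the class lay in a single cluster, a different one on the regimen than in chow. The cluster led by Vcan and Chil3 had 47.9 CPM of Batf over its cells. It held 544 cells in the NO2-OA library, 234 and 35 in HFD + L-NAME libraries and 9 and 0 in the chow libraries. HFD + L-NAME 2 was mixed, with 33 of its 91 cells in the cluster led by Ifi211 and Ifi204. The cluster led by Ifi211 and Ifi204 held 263 cells of chow 1, at 28.1 CPM, and the one led by Stxbp6 and F13a1 held 288 cells of chow 2, at 19.1 CPM. Non-classical monocyte-like cells had 72.3 and 35.6 CPM in HFD + L-NAME and 31.9 and 32.0 CPM in chow, so the second library lay close to the chow libraries. In this class too, most chow cells lay in a pair of clusters, with 698 cells of chow 1 at 36.7 CPM and 523 cells of chow 2 at 32.4 CPM, while the cluster led by Pparg and Fcgr4 held 302 cells of the NO2-OA library and 242 and 147 of the HFD + L-NAME libraries at 55.1 CPM. The part of this makeup in the monocyte values was not tested. Conventional dendritic-like cells, which were too few for a test, had 77.9 and 36.0 CPM in HFD + L-NAME and 27.0 and 19.1 CPM in chow. In B-like cells Batf had 18.1 and 22.3 CPM in HFD + L-NAME and 18.9 and 16.2 CPM in chow, a log2 fold change of 0.20 ± 0.22 (SE). NK-like cells had 24.2 and 12.8 CPM in HFD + L-NAME and 26.7 and 18.2 CPM in chow. Whether the difference in T-like cells is larger than that in B-like or NK-like cells was not tested.

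Regulatory T-like cells were fitted with a minimum of 40 cells per library, a choice made after the data were seen, since HFD + L-NAME 2 held 45. Batf had 191 CPM in the NO2-OA library, 166 and 147 CPM in the HFD + L-NAME libraries and 65.2 and 30.3 CPM in the chow libraries. The log2 fold change of HFD + L-NAME against chow was 1.70 ± 0.35 (SE), or 3.26-fold, with an adjusted p of 0.0751 in edgeR, above the threshold. Tigit followed with 1.60 ± 0.45 (SE) and an adjusted p of 0.597 in edgeR, its ratios within replicate numbers being 1.05 and 2.29. The Tigit values rest on 28 and 24 UMIs in HFD + L-NAME and 27 and 13 UMIs in chow. Of the 9 genes that passed the filter, 6 lay above chow in both HFD + L-NAME libraries and none below, against 13.9% and 16.1% of all 9637 genes. The other 4 were Icos, Pdcd1, Tox and Runx2, with Pdcd1 on only 4 and 3 UMIs in HFD + L-NAME and 7 and 3 UMIs in chow. The 2 clusters of the class were unequally mixed: the Ikzf2 cluster held 105 of 220 cells in the NO2-OA library, 52 of 113 and 26 of 45 in HFD + L-NAME libraries and 83 of 266 and 53 of 168 in the chow libraries. Within that cluster Batf had 192 CPM in the NO2-OA library, 131 and 180.0 CPM in the HFD + L-NAME libraries and 81.9 and 44.9 CPM in the chow libraries. HFD + L-NAME and chow did not overlap there for Batf, Tigit, Cd69 or Pdcd1, the last on 2 to 4 UMIs in each of those 4 libraries. Cd69 had 451 and 657 CPM in HFD + L-NAME against 436 and 373 CPM in chow. The share of all genes with such an order within the cluster was not counted. Icos, with 476 and 526 CPM in HFD + L-NAME against 544 and 301 CPM in chow, Tox and Runx2 overlapped within that cluster. At an adjusted p under 0.05 stood 0.0311% of the genes of the class and none of the 10. At an unadjusted p under 0.05 stood 4 of the 10, Tigit, Tox, Batf and Runx2, and 3.85% of all genes.

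The share of cells with a Batf UMI differed between groups like the level. Among CD4 T-like cells, 1270 of 2529 in the NO2-OA library had one (50.2%, 95% Clopper-Pearson interval 48.2% to 52.2%, counting error only). In the HFD + L-NAME libraries 648 of 1270 and 123 of 343 did, and in chow libraries 460 of 2300 and 199 of 1236. With each cell thinned to 3000 UMIs the shares were 37.7% in the NO2-OA library, 33.4% and 16.2% in HFD + L-NAME libraries and 12.5% and 8.04% in the chow libraries. Median UMIs of these cells were 5159 in the NO2-OA library, 5863 and 7681 in HFD + L-NAME libraries and 5049.5 and 6777.5 in the chow libraries. B-like cells, with medians of 5144 to 7245 UMIs, had thinned shares of 4.21% to 5.58%, below every CD4 T-like value. Erythroid-like cells had an unthinned share of 2.96% at most. The Icos share in CD4 T-like cells after thinning was 36.2% in the NO2-OA library, 29.4% and 31.8% in HFD + L-NAME libraries and 20.3% and 19.4% in the chow libraries, against at most 0.298% of B-like cells unthinned. For Pdcd1 the unthinned CD4 T-like shares were 1.42% in the NO2-OA library, 1.10% and 1.46% in HFD + L-NAME libraries and 0.565% and 0.566% in the chow libraries, against 0 of 2464 to 6083 B-like cells. In the smallest of these sets a limit of 3 counts allows up to 0.122% of cells with a UMI, which does not limit the share of cells that express the gene. After thinning the Pdcd1 shares were 1.12% in the NO2-OA library, 0.404% and 0.294% in HFD + L-NAME libraries and 0.323% and 0.168% in the chow libraries, from 24 cells in the NO2-OA library, 5 and 1 in HFD + L-NAME libraries and 7 and 2 in the chow libraries, so HFD + L-NAME and chow overlapped.

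Transcripts of other blood cells also differed between the libraries. The 8 erythroid markers summed in CD4 T-like cells to 477 CPM in the NO2-OA library, 288 and 459 CPM in the HFD + L-NAME libraries and 157 and 79.8 CPM in the chow libraries. The 10 neutrophil markers summed to 39.8 CPM in the NO2-OA library, 17.6 and 35.0 CPM in the HFD + L-NAME libraries and 5.52 and 1.97 CPM in the chow libraries. No marker of these 2 lists was at 0 in all libraries of that class. Batf itself stood at 5.27 CPM at most in erythroid-like cells, below every CD4 T-like value. Neutrophil-like cells had 40.3 CPM of Batf in the NO2-OA library, 60.6 and 35.9 CPM in the HFD + L-NAME libraries and 30.8 CPM in chow 1, within the range of T-like cells. The 8 platelet markers ran another way, at 45.8 CPM in the NO2-OA library, 444 and 302 CPM in the HFD + L-NAME libraries and 656 and 320 CPM in the chow libraries. In regulatory T-like cells the erythroid sum was 922 CPM in the NO2-OA library, 329.9 and 371 CPM in the HFD + L-NAME libraries and 115 and 68.2 CPM in the chow libraries. The part of these transcripts in the Batf result was not tested.

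Promoter windows are shown for the genes that were higher in both HFD + L-NAME libraries in CD4 or regulatory T-like cells and that have an entry in the RefSeq promoter table, Batf, Tigit, Runx2 and Pdcd1. Of the 10 genes, 6 had an entry. Each run holds the 250 bases before the annotated start in build GRCm38.p6, 5' to 3' on the gene's strand, in lower case. Capitals mark the core of the RUNX binding motif, TGTGGT, or its reverse complement, which RUNX2 and its relatives recognise.
Batf, chr12:85686470-85686719, plus strand: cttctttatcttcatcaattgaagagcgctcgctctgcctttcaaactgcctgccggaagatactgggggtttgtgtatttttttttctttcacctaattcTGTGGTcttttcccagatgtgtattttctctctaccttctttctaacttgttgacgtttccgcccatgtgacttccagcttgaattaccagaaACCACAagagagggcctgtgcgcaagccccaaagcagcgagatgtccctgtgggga
Tigit, chr16:43664185-43664434, minus strand: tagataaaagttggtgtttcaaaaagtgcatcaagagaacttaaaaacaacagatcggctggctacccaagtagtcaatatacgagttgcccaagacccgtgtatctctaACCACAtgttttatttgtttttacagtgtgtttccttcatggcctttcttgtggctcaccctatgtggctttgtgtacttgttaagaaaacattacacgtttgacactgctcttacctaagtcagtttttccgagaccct
Runx2, chr17:44814628-44814877, minus strand: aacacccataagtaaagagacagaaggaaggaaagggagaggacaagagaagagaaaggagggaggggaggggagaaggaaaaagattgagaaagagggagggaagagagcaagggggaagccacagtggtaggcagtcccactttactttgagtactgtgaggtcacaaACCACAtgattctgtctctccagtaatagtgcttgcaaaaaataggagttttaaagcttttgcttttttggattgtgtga
Pdcd1, chr1:94052554-94052803, minus strand: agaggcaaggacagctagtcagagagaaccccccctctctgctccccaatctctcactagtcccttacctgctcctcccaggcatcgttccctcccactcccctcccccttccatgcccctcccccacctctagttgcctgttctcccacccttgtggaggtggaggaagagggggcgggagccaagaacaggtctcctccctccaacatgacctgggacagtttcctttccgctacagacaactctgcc

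The Batf window held 2 matches, 149 and 56 bases before the start and on opposite strands. Tigit held 1 match 140 bases before the start and Runx2 held 1 match 80 bases before it, while the Pdcd1, Ctla4 and Cd44 windows held none. Of all 32851 windows of that length, 4614 held a match on either strand. The AP-1 motif TGANTCA, which BATF binds with JUN, reads the same on both strands and was in none of the 6 windows, against 2217 of all windows, or 6.75%. With no AP-1 match in these windows, an overlap of the 2 motifs could not occur in them. A match describes these letters only.

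**Figure D5:**
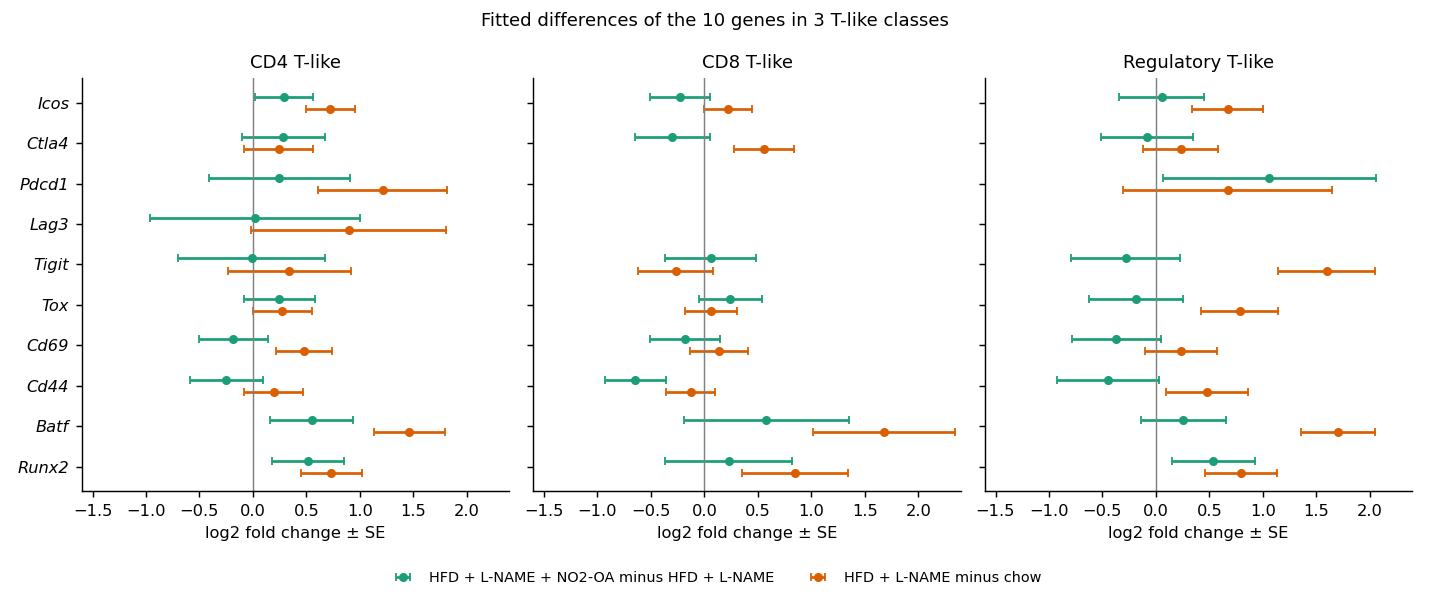
Fitted log2 fold changes ± SE of the 10 genes (rows) in CD4, CD8 and regulatory T-like cells (panels), for HFD + L-NAME + NO2-OA minus HFD + L-NAME (green, upper mark) and HFD + L-NAME minus chow (orange, lower mark). Genes under the filter on low counts have no mark. Batf lay farthest to the right among the orange marks of each panel, at 1.46 in CD4, 1.68 in CD8 and 1.70 in regulatory T-like cells.

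NO2-OA was read from 1 library against both HFD + L-NAME libraries, on the assumption that it varies like the others. In CD4 T-like cells 5 of the 10 genes, Icos, Ctla4, Tox, Batf and Runx2, were higher in the NO2-OA library than in both HFD + L-NAME libraries and 1, Cd69, was lower. With a lone library such an order is common: 39.8% of all genes were higher and 25.3% lower. Batf had a log2 fold change of 0.55 ± 0.39 (SE), with a log2 ratio of 0.28 to the HFD + L-NAME library of the same number. With HFD + L-NAME 1 left out it was 1.14, and with HFD + L-NAME 2 left out 0.16. Icos differed by 0.29 ± 0.27 (SE) and Runx2 by 0.51 ± 0.34 (SE) on the log2 scale. Outside the Tbc1d4 cluster Runx2 turned to -0.29, with 10.9 CPM in the NO2-OA library against 15.6 and 8.65 CPM in the HFD + L-NAME libraries. No gene of the class was called in edgeR (0.0% at an adjusted p under 0.05, 1.84% at an unadjusted p under 0.05), while DESeq2 called 34. The HFD + L-NAME libraries stand in both comparisons.

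CD8 T-like cells had 3 genes higher in the NO2-OA library, Tigit, Tox and Batf, and 4 lower, Icos, Ctla4, Cd69 and Cd44, among the 8 that passed the filter. The backgrounds were 41.4% and 23.7% of all genes. Cd44 had 69.5 CPM in the NO2-OA library and 99.8 and 107 CPM in the HFD + L-NAME libraries, a log2 fold change of -0.64 ± 0.29 (SE) with an unadjusted p of 0.0495 in edgeR. The chow libraries had 133 and 101 CPM. In the class without the Samd3 and Eomes clusters, which made up 13.1% of it in the NO2-OA library and 19.4% and 21.4% in the HFD + L-NAME libraries, the difference was 0.13. Across the class 0.0% of genes passed at an adjusted p under 0.05, 1.7% stood at an unadjusted p under 0.05, and DESeq2 called 24. Regulatory T-like cells had 3 genes higher and 2 lower of 9, against 33.1% and 27.1% of all genes. None of the 9 was called there, against 0.0208% of all genes, and 2.18% of all genes stood at an unadjusted p under 0.05.

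Outside T cells, Tox in B-like cells had 2.52 CPM in the NO2-OA library, 0.762 and 0.598 CPM in the HFD + L-NAME libraries and 1.88 and 1.81 CPM in the chow libraries. The NO2-OA library differed from HFD + L-NAME by 1.85 ± 0.51 (SE) on the log2 scale, and HFD + L-NAME from chow by -1.41 ± 0.44 (SE), with no gene of the class called in edgeR in either comparison (0.0%). All of these levels lay far below the 296 CPM or more of CD4 and CD8 T-like cells, and they rest on 65 UMIs in the NO2-OA library, 25 and 11 in HFD + L-NAME libraries and 62 and 52 in the chow libraries. The 7 CD4 T markers in B-like cells, none of them at 0, summed to 7.37 CPM in the NO2-OA library, 3.66 and 2.06 CPM in the HFD + L-NAME libraries and 5.13 and 5.01 CPM in the chow libraries, the same order of groups, and their part in the result was not tested. Cd69 in platelet-like cells had 86.0 CPM in the NO2-OA library, from 100 cells and 19 UMIs, against 5.95 and 25.2 CPM in the HFD + L-NAME libraries and 20.1 and 54.7 CPM in the chow libraries. The log2 fold change was 2.31 ± 0.66 (SE) with an adjusted p of 0.715 in edgeR, and 0.0157% of the genes of that class were called. With the replicate number as a block it was 2.99 with an adjusted p of 6.46e-05. The 7 CD4 T markers in platelet-like cells summed to 40.7 CPM in the NO2-OA library, 7.93 and 7.20 CPM in the HFD + L-NAME libraries and 14.7 and 28.5 CPM in the chow libraries. The 8 B markers summed to 317 CPM in the NO2-OA library, 104 and 237 CPM in the HFD + L-NAME libraries and 94.6 and 364 CPM in the chow libraries, and the part of either list in the result was not tested.

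The wider pathway was read from 6 lists of genes, and none of their genes was called in CD4 or CD8 T-like cells in either comparison. At an unadjusted p under 0.05 stood 1 of 12 costimulatory receptors, 1 of 13 coinhibitory receptors, 0 of 13 ligands, 3 of 24 activation and exhaustion transcription factors, 1 of 22 signalling genes and 0 of 15 quiescence and homing genes for HFD + L-NAME against chow in CD4 T-like cells, beside 1.88% of all genes. The median log2 fold changes of the lists were -0.05, 0.06, 0.11, 0.27, 0.03 and 0.07, with 0.01 over all genes. Of the 24 transcription factors 6 were above chow in both HFD + L-NAME libraries and 2 below, against 9.15% and 17.2% of all genes. Jun, whose product pairs with BATF, had 363 CPM in the NO2-OA library, 679 and 592 CPM in the HFD + L-NAME libraries and 576 and 389 CPM in the chow libraries. Cd28, the main costimulatory receptor of naive T cells, had 466 CPM in the NO2-OA library, 468 and 645 CPM in the HFD + L-NAME libraries and 714 and 660.0 CPM in the chow libraries. Cblb, a ubiquitin ligase that restrains T-cell receptor signalling, had 2549.8 CPM in the NO2-OA library, 1805 and 1708 CPM in the HFD + L-NAME libraries and 1496 and 1458 CPM in the chow libraries. Satb1, a chromatin organiser of naive T cells, had 3011 CPM, 2668 and 1874 CPM, and 1971 and 1493 CPM in the same order of groups.

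For NO2-OA against HFD + L-NAME, costimulatory receptors were the list with the lowest median, at -0.32 in CD4 and -0.27 in CD8 T-like cells, with 9 of 12 lower than in both HFD + L-NAME libraries in each class, against 25.3% of all genes in CD4 and 23.7% in CD8 T-like cells. The corresponding medians over all genes were -0.02 and 0.00. Btla, an inhibitory receptor that binds HVEM, had 266 CPM in CD4 T-like cells of the NO2-OA library, 168 and 127 CPM in the HFD + L-NAME libraries and 122 and 144 CPM in the chow libraries.

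Over 6 classes and 5 libraries, 30 points that share libraries and depth, the genes with patterns most like each of the 10 were sought among 8343 genes. Icos was most like Zap70, a kinase of T-cell receptor signalling, with a Pearson r of 0.989, and F2rl1 with 0.988. Tox was most like Sh2d1a with 0.992 and Bcl11b with 0.989, Ctla4 like Klhl3 with 0.971 and Vipr1 with 0.970, and Cd69 like Rhoh with 0.977 and Lax1 with 0.975. Cd44 had a value of 0.979 with Dgkg. Batf had the lower values of 0.961 with Slc41a1 and 0.958 with Disp1. Runx2 was most like Runx2os1 with 0.964, an antisense transcript whose reads cannot be told from those of Runx2 unless strand was used in counting, and Art2a with 0.960. Pdcd1, Lag3 and Tigit lay under the 20 CPM needed.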

How the data were processed

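Each library's matrix holds UMI counts per gene and barcode as the authors deposited them, not normalized. Cell Ranger 7.1.0 wrote them, per the file headers, and bcl2fastq, Cell Ranger and build mm39 are named in the submitters' processing notes. Blood cells were taken from a Ficoll gradient, freed of red cells, frozen and thawed, per the labels' protocols.

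Barcodes with at least 200 genes and under 10% mitochondrial UMIs were kept, and 6.79% to 14.4% of barcodes per library, those with the highest scrublet scores (scanpy 1.11.5), were left out as doublets. Leiden clusters (leidenalg 0.10.2) were formed on 2000 variable genes and 40 principal components, then again within T and NK cells (centred within library) and within myeloid cells. Clusters were named from marker lists by a rule set after the data were seen, and 652 to 1201 kept cells per library stayed unnamed. Counts were summed per class and library. edgeR 4.0.16 (filterByExpr, TMM, robust quasi-likelihood, group only, all 5 libraries in 1 fit, 2 residual degrees of freedom) tested classes that had 50 or more cells per library throughout, with Benjamini-Hochberg adjustment over all genes of the class at 0.05. Standard errors are the fold change divided by the square root of F. An exact permutation test of 2 libraries against 2 cannot go below 0.333. Counts were also simulated for CD4 T-like cells (13918 genes, HFD + L-NAME against chow). Each gene was drawn independently with edgeR's trended dispersion, the spread typical of its level, and with no effect of replicate number or NO2-OA. Of genes changed by 1 on the log2 scale 15.5% were called, and of those changed by 2, 75.5%, with 6 false calls. These shares hold for that setting, which lacks the differences between sets of libraries.

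Named genes are the 10 genes in every class, from each pathway list up to 4 called genes or else the 4 with the highest mean, and for likeness the 2 genes with the highest Pearson r, of which 1 is not reported here. The genes, lists and markers were chosen with earlier results of these data known. Promoters came from a RefSeq table of build GRCm38.p6, and no coordinates of mm39 were used. DESeq2 1.42.0, other normalizations, filters, thinning, the replicate block, other class definitions and leaving out each library were tried as alternatives. The replicate block leaves 1 residual degree of freedom, as does leaving out a chow or HFD + L-NAME library. Counting error alone is covered by the intervals on shares of cells.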

Additional observations from a re-analysis of the deposited data

How the results depend on the processing

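Fold changes of the 10 genes were recomputed only where they exceeded their SE in the report's fits, 28 in all, and none was called there. These kept their direction and their side of the threshold in 437 of 453 recomputed values. The choice by size favours a kept direction, so the count says nothing of the smaller fold changes. All 60 recomputed levels moved by less than 1 SD of the libraries. Of 30 mean shares of cells with a UMI, 18 moved by 1 SD or more on thinning. No gene was called in CD4 or CD8 T-like cells, and 0 of the 10 genes anywhere, in the fits of the report. For HFD + L-NAME against chow, the genes past the threshold over the 6 classes, 0 in the report, numbered 33 with DESeq2, 170 with no filter on low counts, 6 after thinning, 5 at 5% mitochondrial UMIs, 5 with the 10 genes allowed among the clustering genes, 68 with centred clustering, and 0 to 586 with 1 library left out. In CD4 T-like cells they numbered 4 with DESeq2, 30 with no filter and 0 to 45 with 1 library left out, and in CD8 T-like cells 2, 18 and 0 to 65 under the same settings. Among the 10 genes, 1 call was made with no filter and 0 to 1 with 1 library left out. For NO2-OA against HFD + L-NAME, the count over the 6 classes, 1 in the report, was 113 with DESeq2, 2 with its size factors, 230 with no filter, 5 after thinning, 124 in a fit of those groups alone, 2 at 5% mitochondrial UMIs, 5 with doublets kept, 9 with centred clustering and 56 to 207 with 1 library left out. In CD4 T-like cells it was 34 with DESeq2, 64 with no filter, 3 after thinning, 21 in a fit of those groups alone, 5 with doublets kept and 30 to 50 with 1 library left out. In CD8 T-like cells it was 24 with DESeq2, 55 with no filter, 28 in a fit of those groups alone, 1 without the Samd3 and Eomes clusters and 0 to 25 with 1 library left out. Among the 10 genes, 1 call was made in a fit of those groups alone and 0 to 1 with 1 library left out. The cause was not tested.

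With the replicate number as a block, the HFD + L-NAME and chow counts were 108 genes over the 6 classes, 38 in CD4 and 2 in CD8 T-like cells, with 2 calls among the 10 genes, both of Batf. The NO2-OA counts under the block were 445, 84 and 52, with 1 call among the 10 genes. Deviations of libraries with the same number correlated over genes at 0.20 in CD4 and 0.12 in CD8 T-like cells, and at 0.096 to 0.36 over the 6 classes. Cavity-type macrophage-like cells numbered 273 in HFD + L-NAME 2 and 102 in chow 2 and 0 in the 3 libraries numbered 1. The file names form sets by number, but the sources do not say what the sets are, and there are only 2 pairs. Under the block Batf was called in CD4 T-like cells at a log2 fold change of 1.41 (adjusted p 0.000467 in edgeR) and in CD8 T-like cells at 1.55 (adjusted p 0.00957), and platelet-like Cd69 under NO2-OA at 2.99.

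Batf in CD4 T-like cells was also called with no filter, at 1.44, but not with DESeq2, at 1.44 (adjusted p 0.162). With HFD + L-NAME 2 left out it was 1.86. Platelet-like Cd69 under NO2-OA was called in a fit of those groups alone, at 2.39, and was 2.35 and 2.26 without either chow library. The sign turned in 7 cases. With centred clustering, Cd44 in B-like cells was 0.30 for HFD + L-NAME and -0.35 for NO2-OA, and Ctla4 in B-like cells was -1.74 for NO2-OA. Runx2 in CD8 T-like cells ran from -0.30 with HFD + L-NAME 1 left out to 1.47 with HFD + L-NAME 2 left out, and Tox in platelet-like cells was -0.78 with doublets kept. Without the Tbc1d4 cluster, Runx2 in CD4 T-like cells was -0.29 for NO2-OA, and without the Samd3 and Eomes clusters Cd44 in CD8 T-like cells was 0.13. The settings on clusters, the Gzmk cluster and the minimum of 40 cells were chosen after seeing the data. Depth limits Pdcd1 and Lag3 most, since 273 and 235 UMIs were all that the kept cells held.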

Other observations

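Cells that no class claimed held 31.5% of all Pdcd1 UMIs and 22.2% of all Tigit UMIs. An unnamed cluster with leading genes Xcl1 and Klrk1, which encode a chemokine and an activating receptor of cytotoxic lymphocytes, had 55.2 CPM of Batf in the NO2-OA library, 56.4 and 27.9 CPM in the HFD + L-NAME libraries and 18.7 and 15.9 CPM in the chow libraries. Its Cd69 level was 962 CPM in the NO2-OA library, 1141 and 802 CPM in the HFD + L-NAME libraries and 953 and 1003 CPM in the chow libraries, so the groups overlapped there. Gamma-delta T-like cells, too few for a test, had 81.1 CPM of Batf in the NO2-OA library, 86.5 and 35.2 CPM in the HFD + L-NAME libraries and 35.1 and 26.0 CPM in the chow libraries. Lag3 in conventional dendritic-like cells stood at 17.7 and 12.0 CPM in the HFD + L-NAME libraries and 7.50 and 5.00 CPM in the chow libraries.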
